A study of Drosophila melanogaster with 2 samples.

Results

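The genes described here encode the initiation and elongation factors of cytosolic protein synthesis in Drosophila melanogaster. They were taken as all protein-coding genes of the Ensembl BDGP6 gene models whose symbol begins with eIF or eEF, which gave 52 of 13945 protein-coding genes on the chromosome arms X, 2L, 2R, 3L, 3R and 4. The binding data are chromatin immunoprecipitation followed by sequencing (ChIP-seq) of Eyeless, the fly Pax6 transcription factor, carrying GFP at its C terminus. The chromatin came from wandering larvae (whole animals of the third instar, both sexes pooled) of 1 transgenic line, strain ey-GFP, which both libraries share. A GFP antibody was used according to the sample descriptions, although the antibody entry reads ey. There were 2 libraries, numbered biological replicates 1 and 3, and no second condition, so all comparisons are between genes and between the 2 libraries. In chromatin from whole larvae, strong binding in a few cells and weak binding in many cells cannot be told apart.

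Protein synthesis starts when eIF2 carries the initiator tRNA to the small ribosomal subunit, which eIF1, eIF1A, eIF3 and eIF5 help to scan the mRNA for a start codon. The cap complex of eIF4E, eIF4G and eIF4A brings the subunit to the mRNA, and eIF2B reloads eIF2 with GTP. After eIF5B has joined the large subunit, eEF1 delivers the aminoacyl-tRNAs and eEF2 moves the ribosome along. Genes of this kind are active in nearly all cells, and growing larvae make ribosomes and proteins at a high rate. Many fly housekeeping promoters carry the DNA replication-related element (DRE), which is bound by the factor DREF.

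Each deposited region has a signal, the authors' strength value on a scale that is not stated, and a summit, the position of its peak. The optimal list (6835 regions, signal at least 79.3) holds the strongest regions of the pooled list (30000 regions, signal at least 15.4). The lists of replicate 1 (30000 regions) and replicate 3 (27637 regions) also hold weak regions, so the 6835 strongest of each are called top-ranked here. Ranks run from 1 for the strongest region of a list. The number of reads behind a region is unknown, because the lists hold no read counts.

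An optimal summit lay inside or within 1 kb of 25 of the 52 genes (48.1%, 95% exact binomial interval 34.0 to 62.4), against 34.1% of all protein-coding genes. It lay within 500 bp of a transcription start site (TSS) of the gene itself, called the promoter here, in 18 genes (34.6%, interval 22.0 to 49.1), against 23.0% of all protein-coding genes. These 18 are called bound below. In the pooled list, 41 genes (78.8%, interval 65.3 to 88.9) had a summit inside or within 1 kb and 34 (65.4%, interval 50.9 to 78.0) had one at the promoter, against 63.4% and 49.6% of all genes. The intervals cover counting error over genes only, and genes are not replicate samples. The share of these genes with an optimal region was therefore above the share of all genes, but for the optimal list both background values lay inside the intervals, and for the pooled list they lay just below them. The median gene length was 1955 bp, against 2166 bp for all genes.

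**Figure D1:**
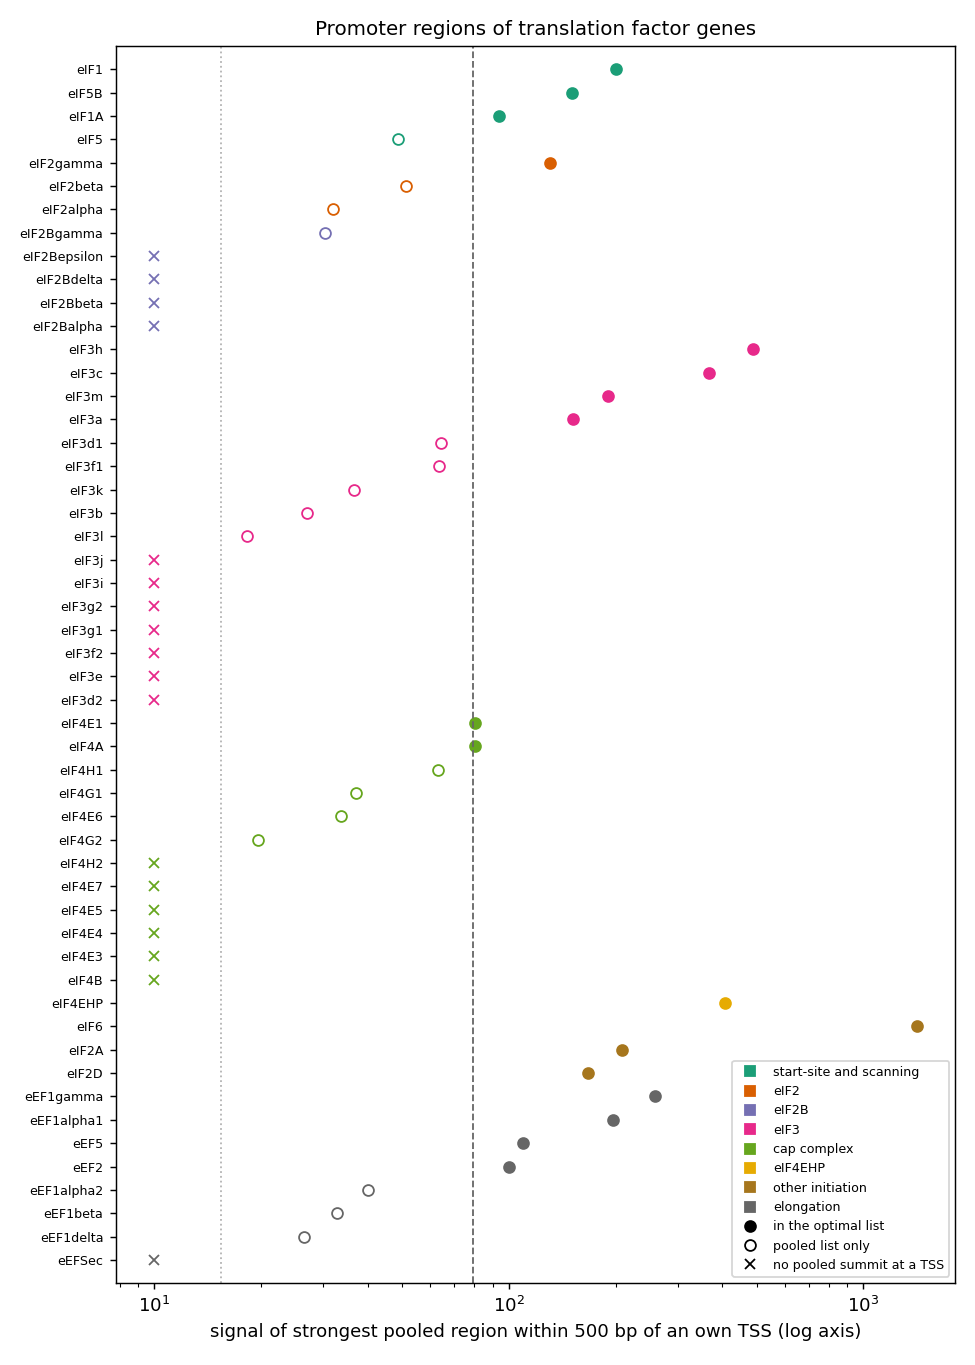
Signal (log axis) of the strongest pooled region within 500 bp of a TSS of each of the 52 genes, grouped and coloured by role. Filled points are in the optimal list, open points in the pooled list only, and crosses at the left edge have no pooled summit there. The dashed line marks 79.3, the lowest optimal signal, and the dotted line 15.4, the lowest pooled signal. The point for eIF6 stands apart at 1419.

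The strongest promoter region by far was at eIF6, whose product keeps the large ribosomal subunit from joining the small one too early and acts in making that subunit. Its signal was 1419 in the pooled data (2R, 23850207 to 23850607), rank 57 of the optimal list. The signal was 564 in replicate 1, rank 115, and 865 in replicate 3, rank 40. The summit lay 109 bp upstream of the TSS of eIF6, inside an intron of ytr and farther than 500 bp from any other protein-coding TSS. The next strongest member, eIF3h, reached 489, so eIF6 was separated from all others of the family in both replicates.

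The other initiation factors outside the large complexes, eIF2A and eIF2D, were also bound at their promoters, where 23.0% of all genes had an optimal summit. At eIF2A, which has been reported to deliver initiator tRNA by a route other than eIF2, the signal was 208 (rank 2207, 62 bp upstream of a TSS). In the replicates it was 133 (rank 1711) and 70.1 (rank 3460). At eIF2D, a factor linked to reinitiation and ribosome recycling, the signal was 167 (rank 2963, 103 bp upstream), with 78.6 and 81.4 in replicates 1 and 3. Both regions were top-ranked in both libraries.

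Of the 4 factors of scanning and start-site choice, eIF1, eIF1A and eIF5B had an optimal promoter region, against 23.0% of all genes. At eIF1, which guards start-codon recognition, 2 optimal summits lay 302 and 99 bp upstream, with signals of 201 and 80.4. The stronger promoter signal was 76.4 in replicate 1 and 113 in replicate 3. Both optimal summits also lay within 500 bp of the TSS of RpL28, a ribosomal protein gene. At eIF1A, the partner of eIF1 in scanning, the signal was 93.7 (131 bp upstream), and the summit was shared with the TSS of Vps39. At eIF5B, the GTPase of subunit joining, the signal was 151 (171 bp upstream of an internal TSS, inside the gene), with 69.5 and 80.9 in the replicates. The gene eIF5, whose product triggers GTP hydrolysis by eIF2, had a pooled promoter signal of 48.8, below the optimal list, at a summit that also lay within 500 bp of TSSs of exd and CG46312.

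Among the genes of eIF2 and of its exchange factor eIF2B, 1 of 3 and 0 of 5 had an optimal promoter region, against 23.0% of all genes, and 3 of 3 and 1 of 5 had a pooled one, against 49.6%. The bound gene was that of the GTP-binding subunit, eIF2gamma (signal 131, rank 3986, 58 bp upstream, with 65.5 in replicate 1 and 55.8 in replicate 3). Its summit was shared with the TSSs of Set and of Su(var)3-9, the histone methyltransferase gene. At eIF2beta and eIF2alpha the pooled promoter signals were 51.2 and 32.0. The pooled promoter region among the 5 eIF2B genes was at eIF2Bgamma (signal 30.3). At eIF2Balpha, eIF2Bbeta, eIF2Bdelta and eIF2Bepsilon no pooled summit lay at the promoter. The eIF2B complex is nevertheless next to one of the strongest regions of the data set. A region of signal 2913 (X, 2703667 to 2704122, rank 4, with ranks 5 and 3 in replicates 1 and 3) lay 691 bp upstream of eIF2Bbeta, at the promoter of the neighbouring gene Ugalt. Its signal was 1366 in replicate 1 and 1625 in replicate 3.

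In eIF3, the scaffold that binds the small subunit, 4 of 16 genes had an optimal promoter region (25%), close to the 23.0% of all genes. At eIF3h the signal was 489 (2L, 5052284 to 5052600, rank 574), with 237 in replicate 1 and 230 in replicate 3. This summit lay 290 bp downstream of a TSS in an intron of eIF3h, and a second one, of signal 240, lay 90 bp downstream in its coding exon. Both were within 500 bp of the TSS of senju. At eIF3c the signal was 368 (rank 938, 48 bp upstream), with 153 and 209 in the replicates. For eIF3m and eIF3a the signals were 191 and 152. Their summits were shared with TSSs of CG8323 and CG1074.

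The other 12 eIF3 genes had no optimal summit at their promoter. Pooled promoter signals were 64.3 at eIF3d1, whose human counterpart can bind the cap, 63.4 at eIF3f1, 36.5 at eIF3k, 27.0 at eIF3b and 18.3 at eIF3l. No pooled promoter summit was found at eIF3d2, eIF3e, eIF3f2, eIF3g1, eIF3g2, eIF3i and eIF3j. The copies eIF3d2, eIF3f2 and eIF3g2 are counted among the eIF3 genes. Apart from them, genes for subunits of 1 complex were thus spread from rank 574 (eIF3h) to no promoter region in any list (eIF3i).

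Of the 12 genes of the cap complex, 2 had an optimal promoter region (16.7%, against 23.0% of all genes) and 6 had a pooled one (50%, against 49.6%), both shares near the background. The 12 include the additional copies eIF4E3, eIF4E4, eIF4E5, eIF4E6, eIF4E7, eIF4G2 and eIF4H2, described below. None of these copies had an optimal promoter region, so the shares describe the mix of copies and other genes. Both optimal regions lay just inside the list. The signal was 80.3 at eIF4E1, the main cap-binding protein (rank 6749, 4 bp upstream), and 80.2 at eIF4A, the RNA helicase (rank 6761, 62 bp downstream). The highest member promoter signals below the list were at eIF3d1 (64.3), eIF3f1 (63.4) and eIF4H1 (63.2), with pooled ranks of 8389, 8494 and 8525. The 2 optimal genes were top-ranked in replicate 1 alone, with ranks 6028 and 6338 there against 9876 and 7130 in replicate 3. At eIF4G1, the scaffold gene on chromosome 4, the pooled signal was 37.0, and at eIF4B no pooled summit was found.

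The gene of the competing cap-binding protein, eIF4EHP, which represses translation of maternal mRNAs in the fly embryo, had more and stronger regions. Its promoter signal was 406 (3R, 24108896 to 24109397, rank 803, 167 bp upstream), with 221 (rank 787) in replicate 1 and 181 (rank 896) in replicate 3. The summit also lay within 500 bp of a TSS of CG18428. A further summit of the same region, signal 99.0, lay 394 bp upstream. Inside the introns of this long gene (45884 bp) 3 more optimal summits lay 2538, 9095 and 9772 bp from the TSS, with signals of 172, 79.7 and 283.

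Among the 8 elongation factor genes 4 had an optimal promoter region (50%, against 23.0% of all genes). At eEF1gamma, a subunit of the exchange complex that recharges eEF1alpha, the signal was 259 (3R, 29220073 to 29220235, rank 1593, 41 bp upstream), with 141 in replicate 1 and 113 in replicate 3. At eEF1alpha1, which delivers aminoacyl-tRNAs, the signal was 197 (rank 2390), with 69.0 and 132 in the replicates. At eEF5, which helps the ribosome through proline stretches, it was 110, and at eEF2, the translocase, 100. The copy eEF1alpha2 had a promoter signal of 40.1, eEF1beta of 32.8 and eEF1delta of 26.5. The selenocysteine factor gene eEFSec had no pooled promoter summit but had a region of signal 34.5 in replicate 1.

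Some family members have additional copies. Of 10 such copies of family members (eIF3d2, eIF3f2, eIF3g2, eIF4E3, eIF4E4, eIF4E5, eIF4E6, eIF4E7, eIF4G2 and eIF4H2), of which eIF4E3 and eIF4G2 act in the male germline of Drosophila, 0 had an optimal promoter region, against 23.0% of all genes (95% exact interval 0 to 30.8). Pooled promoter regions were found at 2, eIF4E6 (signal 33.7) and eIF4G2 (19.6), against 49.6% of all genes (interval 2.52 to 55.6). Both background shares lie inside these intervals. Of the 6 partner genes (eIF3d1, eIF3f1, eIF3g1, eIF4E1, eIF4G1 and eIF4H1), 1 had an optimal promoter region (16.7%, against 23.0% of all genes, interval 0.421 to 64.1). A pooled one was found at 5 (83.3%, against 49.6%, interval 35.9 to 99.6). Here too both background shares lie inside the intervals. The copies were chosen by hand as those known or reported as germline or testis biased, and the partners as broadly expressed. The list of copies does not hold eEF1alpha2, and the difference between copies and partners was not tested. No promoter region in the pooled list or in either replicate's full list was found at eIF2Balpha, eIF2Bdelta, eIF3i and 8 of the additional copies. The share of all genes without one was not counted, so this is not read as a result about the copies.

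**Figure D2:**
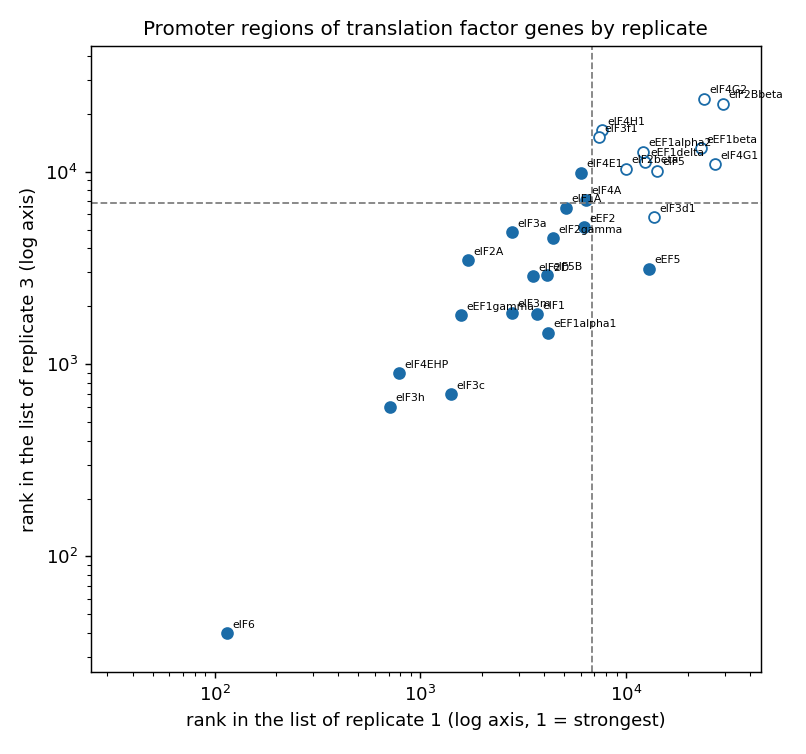
Rank of the strongest promoter region of each gene in the list of replicate 1 (x axis) and replicate 3 (y axis), both log axes, for the 29 genes with one in both full lists. Filled points are in the optimal list and the dashed lines mark rank 6835. Most filled points lie at the lower left of both lines, eEF5 lies to the right of the vertical line, and eIF4A and eIF4E1 lie above the horizontal one.

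The replicates gave nearly the same genes. Top-ranked promoter regions were found at 17 of the 52 genes in replicate 1 (32.7%, against 23.0% of all genes) and at 17 in replicate 3 (32.7%, against 23.2%). Of these, 15 were top-ranked in both (28.8%, against 19.2%), and all 15 were in the optimal list. Of the 18 genes with an optimal promoter region, 83.3% were top-ranked in both libraries, against 82.2% of all genes with one. The exceptions were eIF4A and eIF4E1 above and eEF5, which had a signal of 24.3 (rank 12823) in replicate 1 and 76.1 (rank 3132) in replicate 3. At eIF3d1 the region was top-ranked in replicate 3 (signal 43.8, rank 5814) but not in replicate 1 (22.9, rank 13557), nor optimal. In the full lists, 38 genes had a promoter region in replicate 1 (50.9% of all genes) and 32 in replicate 3 (46.2% of all genes). Across the 29 genes with one in both, Spearman's rho of the signals was 0.855, and across all 5342 such genes it was 0.846. The points share 2 libraries, and a gene's 2 values can come from the same stretch of open chromatin, so rho is a description only.

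**Figure D3:**
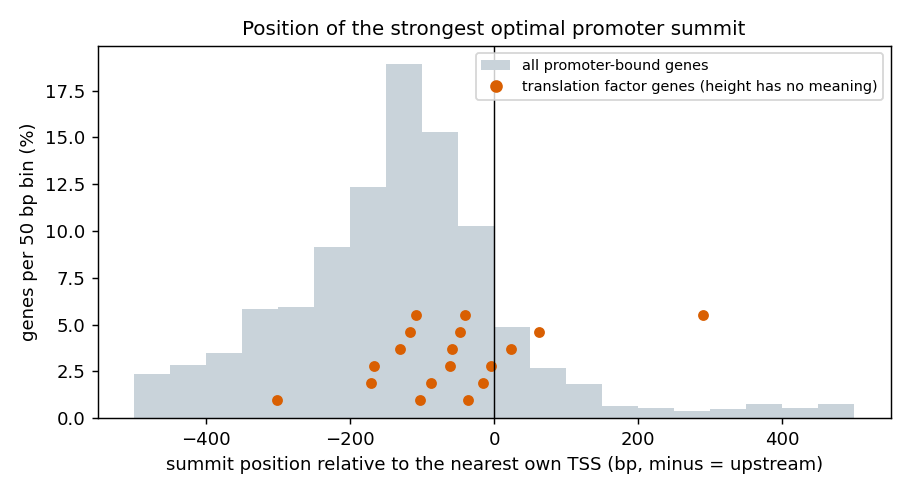
Position of the strongest optimal promoter summit relative to the nearest TSS of its gene (x axis, bp, minus is upstream). Grey bars give the percentage of all 3210 genes with an optimal promoter summit per 50 bp bin, and orange points are the 18 translation factor genes. Most orange points lie between 171 bp upstream and the TSS.

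At the 18 promoters the summits lay close to the TSS. In 15 genes the summit was upstream of the nearest TSS (83.3%, against 86.5% of all genes with an optimal promoter summit). At eEF1alpha1, eEF2, eIF2A and eIF5B that TSS is an internal one, and the summit lay inside the gene. The median position was -60.0 bp, against -130 bp for all, and 16 of 18 summits lay within 200 bp of the TSS (88.9%, against 66.9%). The exceptions were eIF1 at 302 bp upstream and eIF3h at 290 bp downstream. The summit was shared with a TSS of another protein-coding gene in 7 genes (38.9%, against 56.9%), and the other 11 had no other protein-coding TSS within 500 bp. The median signal was 179, against 168 for all genes with an optimal promoter summit. No test was run on these differences.

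Regions away from a member's own promoter mostly sat at other genes. In and around the 25 genes there were 41 optimal summits, of which 21 lay at a TSS of the member and 20 elsewhere. Of these 20, 12 were within 500 bp of the TSS of another protein-coding gene. This held for all 7 genes that had an optimal region only away from their own TSS, namely eEF1alpha2, eIF2Bbeta, eIF2Bdelta, eIF2beta, eIF3f2, eIF3g1 and eIF3j. The same counts were not made for summits around all genes, so they are not read as a trait of this family. Beyond the 3' end of eIF2beta, for example, a region of signal 872 (3L, 12523958 to 12524460, rank 169) lay at the TSSs of Gcn5, which encodes a histone acetyltransferase, and ver. Beyond eIF3g1 a region of signal 355 (rank 989) lay at Smyd3. At eIF4A the stronger regions, signals 137 and 111, lay at chic, the profilin gene, and ifc, while the one at its own TSS reached 80.2.

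The other 8 summits were intronic and belonged to 2 long genes, 3 to eIF4EHP and 5 to eIF5B. In eIF5B (32320 bp) they lay 9896, 10695, 18333, 21938 and 27714 bp from the nearest TSS, with signals of 228, 127, 222, 86.0 and 219. Of these, 3 exceeded the promoter signal of 151. No protein-coding TSS lay within 500 bp of these summits, and the genes were the longest of the family.

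The DRE, TATCGATA, was frequent at the summits of these genes. Searched on both strands within 50 bp of the summit, it was found in 5 of 18 promoter regions (27.8%), against 90 of 2288 promoter regions of all genes (3.93%). The 5 were those of eEF1gamma, eIF1, eIF2A, eIF2gamma and eIF3a, and the centre of the element lay 4, 10, 23, 16 and 1 bp from the summit, in the same order, with another copy at 35 bp in eIF2gamma. All 5 regions were top-ranked in both replicates, as were 15 of the 18 bound genes, with optimal signals from 131 to 259. Their median signal was 201, against 167 for the 13 member regions without the DRE. Over all promoter regions the order was the reverse, 126 with the DRE and 167 without. These differences were not tested. The element also lay farther from the summit at 3 other genes, 67 bp away at eIF1A, 168 bp away at eIF3c and between these distances at eIF6.

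Sequence of 4 of these summit windows is printed below from Release 6 of the genome, 5' to 3' on the strand of the gene, to show how near the element is to the summit. The stretches are the parts of the window outside annotated exons, and capitals mark the DRE. The second copy at eIF2gamma reaches into an exon and the third is not wholly inside the window, so neither is shown. The positions are chr3R:29220081-29220171 on the plus strand for eEF1gamma and chr3L:3222989-3223089 on the plus strand for eIF1. They are chr3R:4433896-4433964 on the minus strand for eIF3a and chr3R:15263466-15263551 on the minus strand for eIF2gamma.
eEF1gamma: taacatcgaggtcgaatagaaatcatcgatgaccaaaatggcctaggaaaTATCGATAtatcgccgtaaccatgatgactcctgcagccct
eIF1: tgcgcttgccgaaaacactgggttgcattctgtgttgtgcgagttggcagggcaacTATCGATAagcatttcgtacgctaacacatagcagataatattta
eIF3a: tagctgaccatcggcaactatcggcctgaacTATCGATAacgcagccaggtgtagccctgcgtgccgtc
eIF2gamma: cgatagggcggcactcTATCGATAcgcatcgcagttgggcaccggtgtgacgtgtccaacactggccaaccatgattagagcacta

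The regions of eIF4EHP and eIF2D held none of the searched motifs at their summits and are printed for contrast, as stretches of low GC content (23.8% and 27.7%). Their positions are chr3R:24109077-24109177 and chr3R:29151847-29151947, both on the minus strand and both free of annotated exons.
eIF4EHP: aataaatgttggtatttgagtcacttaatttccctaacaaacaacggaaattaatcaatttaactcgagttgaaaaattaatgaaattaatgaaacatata
eIF2D: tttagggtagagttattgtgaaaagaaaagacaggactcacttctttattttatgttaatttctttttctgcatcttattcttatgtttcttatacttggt

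The element was also more common in the promoters of the family as a whole. In windows from 250 bp upstream to 50 bp downstream of the most upstream TSS, 14 of 52 genes held it (26.9%), against 1306 of 13945 (9.37%). Of those 14, 7 had an optimal promoter region (50%), and of the 38 without it 11 had one (28.9%). The 11 include eIF1 and eIF2A, whose DRE near the summit lies outside these windows, so the split depends on the window. Among all genes the shares were 34.9% with the element and 21.8% without. Members with the element but no optimal promoter region were eEF1delta, eIF2Bbeta, eIF2alpha, eIF3f1, eIF3l, eIF4B and eIF4E6.

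Each of the other motifs was found at 2 or fewer of the 18 member summits. The core of Motif 1, a promoter element of housekeeping genes (GGTCACAC), was found at 2 of 18 (11.1%, against 1.66%), in eEF1alpha1 and eIF2A. Promoter windows held it at 6 of 52 genes (11.5%, against 7.70%), and 0 of these 6 were bound, against 23.0% of all genes. The 6 do not include eEF1alpha1 and eIF2A, where the core at the summit lies outside these windows. The bound share of all genes with the core was not counted, so this is not read as a result. The homeodomain palindrome TAATTA was found at 0 of 18, against 8.96% of all promoter regions, and the E-box CACGTG at 0 of 18, against 1.05%. In the promoter windows TAATTA was held by 14 of 52 genes (26.9%, against 20.5%) and CACGTG by 4 (7.69%, against 4.23%). These differences rest on few genes and were not tested. The TATA box TATAAA was found at 1 summit (eIF6, 5.56%, against 19.9%) and GAGAG at 1 (eIF3c, 5.56%, against 8.83%). In the promoter windows TATAAA was held by 44.2% against 45.8%, and GAGAG by 15.4% against 29.8%. A match is a description of these letters and not a binding site. The TCT initiator of ribosomal protein genes (a pyrimidine, CTTT and 2 pyrimidines, on the sense strand with its C within 5 bp of a TSS) was found at 3 of the 52 genes (5.77%), against 58.1% of ribosomal protein genes and 1.31% of all genes. The 3 were eEF2, eIF3f1 and eIF3m.

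**Figure D4:**
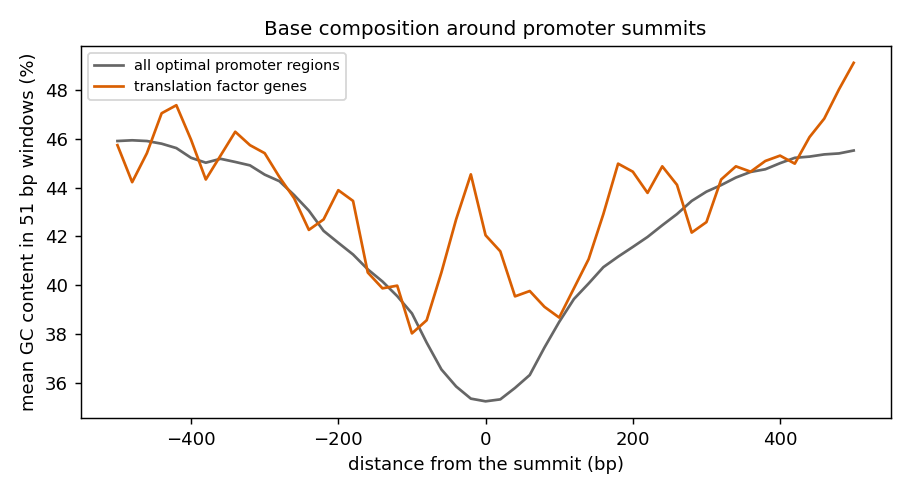
Mean GC content in 51 bp windows (y axis, %) by distance from the summit (x axis, bp), for the 18 promoter regions of translation factor genes (orange) and all 2288 optimal promoter regions (grey). The grey line is lowest at the summit, and the orange line has a peak within 50 bp of it between low flanks.

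The base composition of the summits also differed in its mean, which was not tested. Mean GC content within 50 bp of the summit was 42.0% (SD 10.8 across 18 regions), against 35.4% (SD 9.41 across 2288). Windows of the same width centred 300 bp away had means of 44.8% at these genes and 44.2% at all. It was lower at the summit than in those flanks in 9 of 18 regions (50%), against 74.5% of all. The values ran from 23.8% at eIF4EHP and eIF1A to 57.4% at eIF3a, and 12 lay above 40%, among them all 5 regions with the DRE. Of all promoter regions 28.3% had a GC content above 40%. The 5 regions with the DRE had a mean of 49.5% (SD 5.38), and the 13 without had 39.1% (SD 11.1). For all promoter regions these means were 41.5% with the DRE and 35.1% without.

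**Figure D5:**
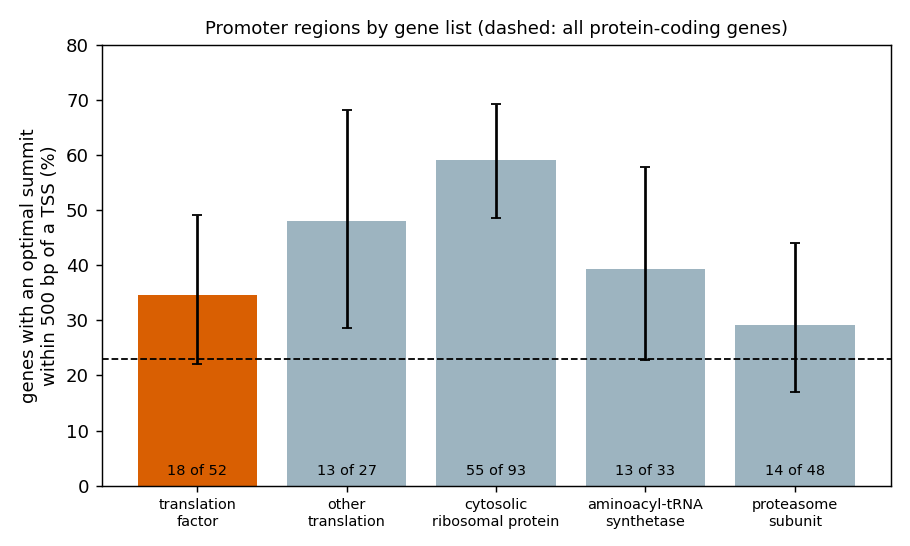
Percentage of genes with an optimal summit within 500 bp of a TSS (y axis) in 5 gene lists, with the counts at the foot of each bar. Error bars are 95% exact binomial intervals over genes and the dashed line is the share of all protein-coding genes, 23.0%. Ribosomal protein genes stand highest, at 59.1%.

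Other genes of translation, and those of the proteasome, which degrades proteins, are given for orientation, without a test. An optimal promoter region was found at 13 of 27 further translation genes (48.1%), 55 of 93 cytosolic ribosomal protein genes (59.1%), 13 of 33 aminoacyl-tRNA synthetase genes (39.4%) and 14 of 48 proteasome subunit genes (29.2%). Among the 27, the strongest promoter region was at larp (signal 2315, rank 12), which encodes an RNA-binding protein that acts on translation, followed by pAbp, the poly(A)-binding protein gene (433, rank 720), and pix, a ribosome recycling factor gene (215, 12 bp upstream). At Lk6, which encodes a kinase of eIF4E, the best of 2 optimal regions ranked higher, at 6, but lay away from its promoter. The gene Tor, listed as mTor in the gene models, was not matched and is not counted, although it had an optimal promoter summit. The termination factor genes eRF1 (177) and eRF3 (97.1) were bound. So were Thor, which encodes the eIF4E-binding repressor (127), crc, which encodes the fly ATF4 (143), mxt, which encodes an eIF4E-binding protein (126), and S6k (102). The remaining ones were Rack1 (124), MCTS1 (83.1), mEFTu1 (82.6) and bel (81.2). Among those not bound at the promoter were the eIF2alpha kinase genes Gcn2 and PEK, with pooled signals of 46.1 at PEK and none at Gcn2, and the eIF4G relative NAT1 (47.2). The others without an optimal promoter region were Lk6, Paip2, Pdcd4, cup, PPP1R15, DENR, raptor, mEFG1, mEFTs, mIF2 and mIF3.

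By chromosome arm, an optimal promoter region was found at 3 of 5 members on 2L, 5 of 13 on 2R, 4 of 11 on 3L, 6 of 15 on 3R, 0 of 1 on chromosome 4 and 0 of 7 on X. The shares of all genes were 22.1% on 2L, 22.1% on 2R, 23.4% on 3L, 24.8% on 3R, 15.0% on chromosome 4 and 22.4% on X. The 7 genes on X were eIF2alpha, eIF2Bbeta, eIF2Bepsilon, eIF3g1, eIF4E7, eIF4H1 and eIF5, of which eIF4H1 had the highest pooled promoter signal (63.2). Both eIF2Bbeta and eIF3g1 had an optimal region within 1 kb, at the promoters of Ugalt and Smyd3.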

How the data were processed

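ChIP-seq was made from chromatin sheared by sonication to a stated size range of 200 to 800 bp, per the labels. The authors deposited dm6 lists of regions with a signal value per region, per the listings deposited with the files: 1 unthresholded list for each replicate, 1 for both replicates together (pooled), and an optimal list left after thresholding by irreproducible discovery rate. The listings name alignments and a control as the origin of the lists. Sources used here do not give the aligner, the peak caller or the threshold. The control was not analysed here, nor were the dm3 lists. The signal served to rank and describe regions within a list.

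Summits (region start plus deposited offset) were placed with Python 3.11.15, pandas 2.3.3 and SciPy 1.17.1 on the gene models of Ensembl release 115 (BDGP6.54) and Release 6 of the genome. No region lay past the end of its arm. A gene counted once, by its strongest region within 500 bp of any annotated TSS. With 1 group of 2 libraries, no test was run. All 52 genes are named, each with its promoter signal or as having none, and other genes only where they share a summit or stand in a list. The member rule and all lists were chosen with earlier results of these data known. Of the 29 symbols of further translation genes, 27 were matched. Placement was checked on 200 planted summits, all of them recovered.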

Additional observations from a re-analysis of the deposited data

How the results depend on the processing

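Of 34 alternative counts and shares, 27 stayed within 1.5 times the reported count or, for the share with the DRE, within its interval. That interval rests on 18 regions and is wide. For the counts, this score is on the number of member genes and not on its distance from the share of all genes. With a gene window of 5 kb, which stayed within the limit, 30 of the 52 genes had an optimal summit, against 55.3% of all genes. The number of genes with an optimal summit inside or within 1 kb was 15 with only the optimal regions above the median rank (21.2% of all genes) and 9 with summits inside the gene only (14.9% of all genes). In the pooled list 20 genes had a summit inside the gene (35.5% of all genes). With all regions of a replicate list, promoter regions were found at 38 genes in replicate 1 (50.9% of all genes), 32 in replicate 3 (46.2%) and 29 in both (38.3%), and with the top-ranked regions above their median rank 6 genes were top-ranked in both (10.8% of all genes). These moves follow from fewer or more regions, or a smaller window, by construction. The share of members was near that of all genes with the 5 kb window and with summits inside the gene only. It was also near that share for the 6 genes top-ranked in both. Leaving out replicate 1 or replicate 3 gave 17 promoter-bound genes each (23.2% and 23.0% of all genes). The count within 1 kb was then 25 to 27 genes (33.4% to 34.5% of all genes). The DRE share was then 23.5% to 29.4%, against 3.45% to 3.87% of all promoter regions. With the DRE core ATCGAT the share was 38.9%, against 8.96% of all promoter regions. The GC division at 40% was chosen after the values had been seen. No paired analysis was possible because all samples form 1 group. Without read counts, a missing region cannot be told apart from low depth.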
